A study of Mus musculus with 12 samples.

Results

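A set of 10 genes used to tell classical brown, beige and subcutaneous white adipocytes apart was followed across subcutaneous white adipose tissue (scWAT) and brown adipose tissue (BAT) of wild-type (WT) and Lr11-/- mice. They are Zic1, Lhx8, En1, Meox2, Tbx1, Tmem26, Tnfrsf9, Cited1, Tbx15 and Shox2. They were chosen by name from knowledge of adipose lineages, with earlier results of these data known. Every probe whose accession matched one of them was taken. All 10 of the 10 genes were found, among 20660 named genes, with 12 probes, and 8 of them had a probe bright enough to test. Lr11, also called Sorl1, encodes a sorting receptor of the low-density lipoprotein receptor family. The 4 groups were scWAT and BAT of WT mice and scWAT and BAT of Lr11-/- mice, with 3 one-colour Agilent arrays each. All mice were male C57Bl6/J aged 12 weeks, the controls were littermates, and every group was fed a high-fat diet (HFD), for which the labels give both 4 weeks and a start at weaning. Lr11 was missing from the whole animal, so differences in fat could arise in any tissue. The labels do not say that the 3 samples of a group came from separate animals, and p-values measure the spread between these samples. Depots were compared as unpaired groups, and whether scWAT and BAT came from the same mice is not known here.

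Classical brown adipocytes of the interscapular depot share a developmental origin with skeletal muscle, while beige adipocytes are thermogenic cells that appear inside white depots. Both cell types use the uncoupling protein Ucp1, so Ucp1 alone does not tell them apart, and genes of embryonic position and lineage are used for that purpose. Zic1 and Lhx8 are the usual classical brown markers. En1 and Meox2 mark dermomyotomal precursors from which brown fat arises. Tbx1, Tmem26, Tnfrsf9 and Cited1 were put forward as beige markers, and Tbx15 and Shox2 are developmental factors of subcutaneous fat. Most of these genes encode transcription factors, which are made in small amounts.

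Values are log2 intensities from which the 75th percentile of the array was subtracted, so 0 stands for a signal equal to it. Levels of different probes cannot be compared, since probes bind with different strength. In whole tissue, fewer cells of a type and less RNA per cell cannot be told apart. The scanner software marks each spot that is well above background. A probe was tested if some group had this mark on each of its 3 arrays, which left 32121 probes. A gene is called changed in limma where its p, adjusted over these probes after Benjamini and Hochberg, is under 0.05.

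The deleted gene and a gene of body position followed the labels. Sorl1 was between 0.11 and 1.21 on the 6 WT arrays and between -3.93 and -2.45 on the 6 Lr11-/- arrays. Whether its probe lies in the deleted stretch is not known here. Hoxc9, a gene of posterior body position, was well above background on 6 of 6 scWAT arrays and on 0 of 6 BAT arrays. It was at least 90.9-fold higher in WT scWAT than in WT BAT, with means of 1.88 and -6.58 and a limma adjusted p of 2.9e-05, and at least 109-fold higher in Lr11-/- scWAT than in Lr11-/- BAT. These folds are taken against the lowest signal well above background on each BAT array. The adipocyte marker list (8 genes) averaged between 6.21 and 7.70 on 11 arrays and 4.10 on replicate 2 of WT scWAT. Skeletal muscle RNA was uneven. The mean of 8 skeletal muscle genes lay between 4.82 and 8.01 on 5 arrays, with 8 of 8 genes well above background, and between -4.82 and -3.63 on the other 7, with 2 to 4 of 8. The 5 arrays are replicate 3 of WT scWAT, replicate 1 of Lr11-/- scWAT, replicates 1 and 3 of WT BAT and replicate 1 of Lr11-/- BAT. Replicate 1 of Lr11-/- scWAT also had an epithelial list mean of 1.54, against -4.59 to -2.06 on the other 11. Replicate 1 of each group came from a first array series, and replicates 2 and 3 came from a second. In the first series both scWAT arrays were on slide 1 and both BAT arrays on slide 2, so depot and slide cannot be told apart there. All arrays of the second series were on slide 3. With the slide as a block, the depot difference over both genotypes therefore rests on the second series.

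Few of the 8 tested genes passed the test. For BAT against scWAT in WT mice, 1 of 8 was called, Tnfrsf9, beside 24.8% of all tested probes. For the same comparison averaged over both genotypes, 2 of 8 were called, Tnfrsf9 higher and Tbx1 lower in BAT, beside 24.2% of all probes. In the Lr11-/- mice 0 of 8 differed between depots by limma, beside 0.0405% of all probes, and 4 had an unadjusted p under 0.05, beside 9% of all probes. For Lr11-/- against WT, 0 of 8 were called in scWAT by limma, beside 5.27% of all probes. An unadjusted p under 0.05 was found for 2 of 8 there, beside 27.6% of all probes. The share of called probes in scWAT was unstable, since the 1692 calls became 17 without replicate 3 and 6401 without replicate 1 of Lr11-/- scWAT, and 0 with the scWAT arrays alone in the fit. In BAT 0 of 8 were called by limma, beside 0.0187% of all probes, and 0 had an unadjusted p under 0.05, beside 2.12%. The genotype effect differed between scWAT and BAT for 0 of 8 genes by limma, beside 0% of all probes, and 1 had an unadjusted p under 0.05, beside 11%. The median difference over the 8 genes was 0.36 for genotype in scWAT and -0.78 for BAT against scWAT in WT mice, with medians over all probes of 0.04 and 0.07.

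Groups of 3 arrays did not overlap for 1 of 8 genes between genotypes in scWAT, beside 20.4% of all probes, and for 0 of 8 between genotypes in BAT, beside 12%. Between depots they did not overlap for 2 of 8 genes in WT mice, beside 40.2% of all probes, and for 3 of 8 in Lr11-/- mice, beside 23.2%. For the 6 BAT against the 6 scWAT arrays there was 0 of 8, beside 6.7%. The shares of the depot markers therefore lay below those of all probes in 4 of these 5 comparisons and above in 1.

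**Figure D1:**
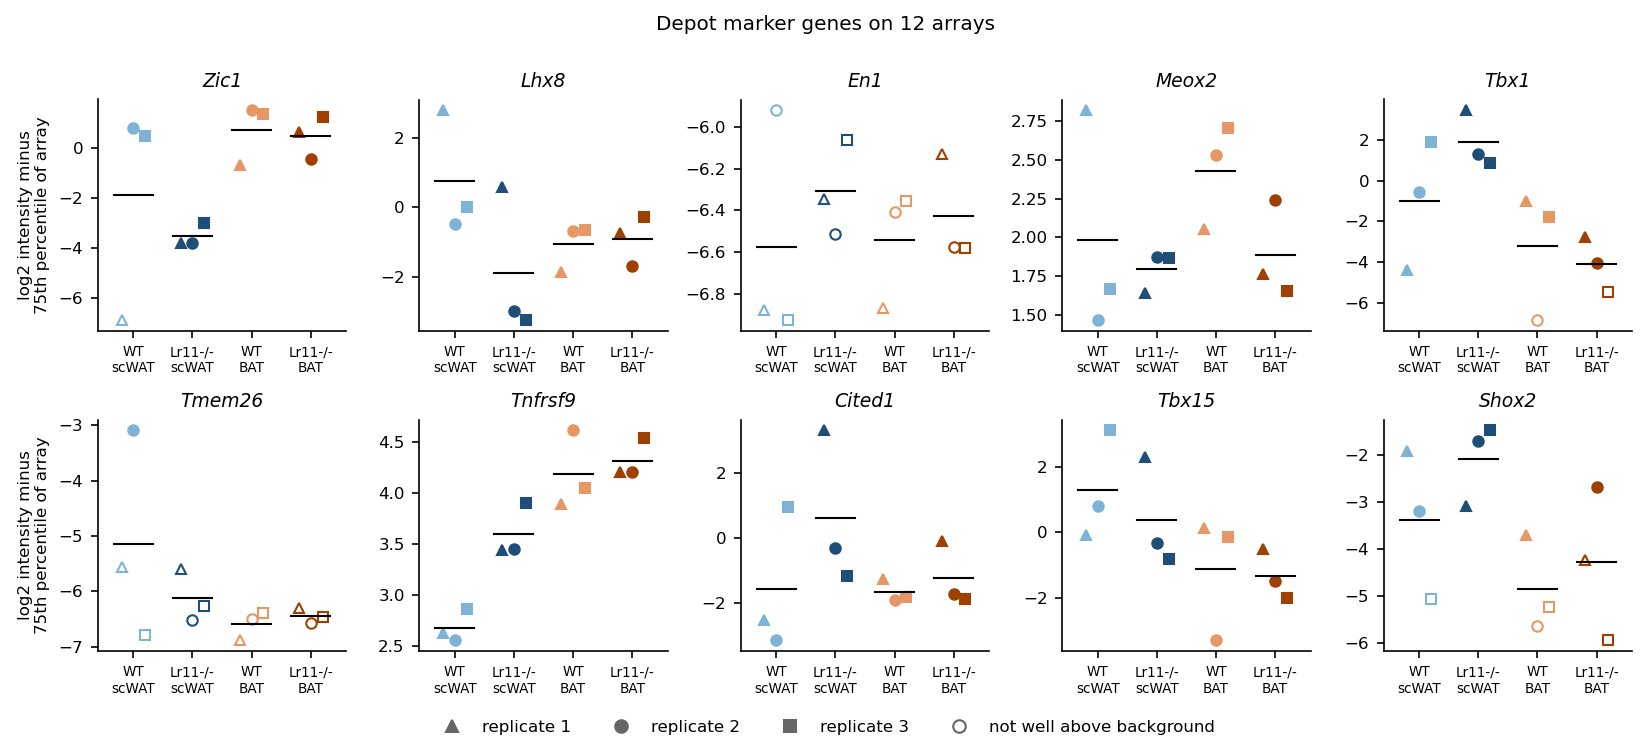
Scaled log2 intensity of the 10 depot marker genes on each of the 12 arrays, by group, with the group mean as a line. Open symbols are arrays on which the probe was not well above background, which is the case for En1 on all 12. The SD within a group is at most 0.38 for Tnfrsf9 and reaches 4.32 for Zic1, 3.17 for Tbx1 and 2.39 for Cited1.

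Zic1, a zinc finger factor of dorsal midline and somite development, had its highest values in BAT on its brighter probe (A_51_P194230) without passing the test. WT BAT arrays 1 to 3 read -0.71, 1.49 and 1.34, and Lr11-/- BAT arrays read 0.60, -0.46 and 1.20. The Lr11-/- scWAT arrays read -3.79, -3.79 and -3.00. The WT scWAT arrays read -6.86 (not well above background), 0.76 and 0.46. All 3 Lr11-/- scWAT arrays thus lay below every BAT array, whereas 2 of 3 WT scWAT arrays lay within the range of BAT. BAT exceeded scWAT by 3.98 (SE 1.63) in Lr11-/- mice, with an adjusted p of 0.513 and the smallest exact permutation p that 3 against 3 arrays allow, 0.1. The difference was 2.59 (SE 1.63) in WT mice with an adjusted p of 0.26 by limma, and 3.28 (SE 1.16) over both genotypes with an adjusted p of 0.0614 by limma, a difference that was called in 8 of 26 settings. The genotype effect in scWAT minus that in BAT was -1.39 (SE 2.31) with an adjusted p of 0.843 by limma, so a difference between genotypes in the depot contrast was not shown.

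For genotype in scWAT, the Zic1 difference moved with single arrays. Lr11-/- minus WT was -1.65 (SE 1.63) with an adjusted p of 0.543 by limma. In the first array series the single pair gave 3.07, and the second series gave -4.00 with an adjusted p of 0.00895 by limma. Leaving out replicate 1 of WT scWAT gave -4.14 with an adjusted p of 0.0155 by limma, and leaving out replicate 2 of WT scWAT gave -0.33. In BAT the genotype difference was -0.26, with a 95% interval from -3.87 to 3.35.

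The second Zic1 probe (A_55_P2009774) was well above background on 12 of 12 arrays and showed none of this spread. It ranged from -2.29 to -1.12, and BAT minus scWAT over both genotypes was 0.17, with a 95% interval from -0.29 to 0.63. Its array with the highest value, replicate 1 of WT scWAT, was the lowest of the first probe. The 2 probes were assigned to the same transcript accession, and which of them follows Zic1 was not tested. Zic4, which lies beside Zic1 in the genome, differed between depots by 0.43 in WT mice (adjusted p = 0.548 by limma).

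**Figure D2:**
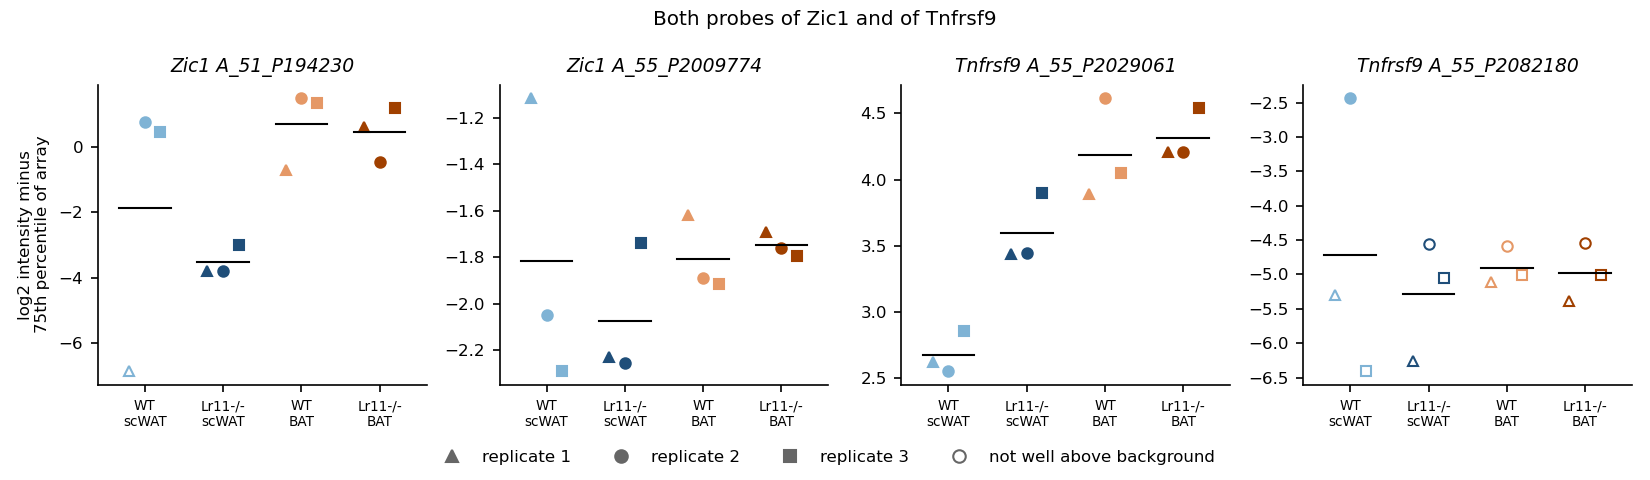
Scaled log2 intensity of both probes of Zic1 and both probes of Tnfrsf9 on the 12 arrays, by group, with the group mean as a line and open symbols for arrays not well above background. The vertical axes differ. The first Zic1 probe spans from -6.86 to 1.49 and the second from -2.29 to -1.12.

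Lhx8, a LIM homeobox factor, gave no depot difference that passed the test. WT scWAT arrays read 2.81, -0.48 and -0.005 and WT BAT arrays -1.87, -0.68 and -0.66, so the WT groups did not overlap and BAT was the lower. The difference of -1.84 (SE 1.06) had an adjusted p of 0.217 by limma. Lr11-/- scWAT arrays read 0.58, -3.00 and -3.25 and Lr11-/- BAT arrays -0.75, -1.69 and -0.28. Within each array series the Lr11-/- scWAT values were below the WT ones, with differences of -2.23 in the first and -2.88 in the second. Over all arrays Lr11-/- minus WT in scWAT was -2.67 (SE 1.06), with an adjusted p of 0.137 by limma. The 2 groups overlapped, the exact permutation p was 0.3, and the difference stayed uncalled in 25 of 29 alternative settings. With the slide as a block the adjusted p was 0.0322, in the second series alone it was 0.0124, and without replicate 1 of Lr11-/- scWAT the difference was -3.90 with an adjusted p of 0.0147, all by limma. Without replicate 1 of WT scWAT, the highest array, the difference was -1.65 with an adjusted p of 0.271 by limma.

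Both classical brown genes are shown with the stretch before their start, since they are the markers on which a classical brown identity is usually read. The windows are the 250 bases before the RefSeq start on build GRCm38.p6, printed 5′ to 3′ on the strand of the gene: chr9:91365769-91366018, minus strand, for Zic1 and chr3:154330561-154330810, minus strand, for Lhx8. Capitals mark the letters GGTGTG or, on the other strand, CACACC, the core of the site bound by T-box factors such as Tbx1 and Tbx15.
Zic1: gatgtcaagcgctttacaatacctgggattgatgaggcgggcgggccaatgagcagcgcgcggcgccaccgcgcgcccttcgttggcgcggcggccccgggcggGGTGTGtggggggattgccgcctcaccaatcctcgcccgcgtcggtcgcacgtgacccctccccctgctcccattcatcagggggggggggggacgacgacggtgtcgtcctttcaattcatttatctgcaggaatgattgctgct
Lhx8: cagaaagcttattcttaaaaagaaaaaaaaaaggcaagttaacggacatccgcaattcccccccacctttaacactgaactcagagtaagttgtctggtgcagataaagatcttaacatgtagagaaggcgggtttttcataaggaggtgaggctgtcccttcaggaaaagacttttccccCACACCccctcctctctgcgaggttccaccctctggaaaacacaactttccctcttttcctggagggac
These letters occur 1 time in each window, 146 bases before the start of Zic1 and 69 before that of Lhx8. They occur in 16.3% of all 32851 RefSeq windows of this length and in 2 of the 13 windows of the 9 members that have one. The motif CCCNNGGG, which reads the same on both strands and resembles the site of EBF factors, occurs in neither of these windows, in 2 of the 13 and in 11.8% of all windows. The windows of Zic1 and Lhx8 are 66.0% and 46.0% G and C. The arrays hold no measurement of binding at these letters.

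En1 and Meox2, homeobox genes of the precursor lineage, behaved differently from each other. En1 was well above background on 0 of 12 arrays, although it had 10 spots per array. Meox2 was well above background on 12 of 12 and ranged from 1.47 to 2.82. The Meox2 group means in WT mice were 1.99 ± 0.73 for scWAT and 2.43 ± 0.34 for BAT (SD, n = 3). In Lr11-/- mice they were 1.79 ± 0.13 for scWAT and 1.89 ± 0.31 for BAT (SD, n = 3). The differences did not pass the test, and the 95% interval of Lr11-/- minus WT ran from -0.95 to 0.57 in scWAT and from -1.31 to 0.22 in BAT. BAT minus scWAT in WT mice was 0.45 (adjusted p = 0.36 by limma), and without replicate 1 of WT scWAT it was 0.86 (adjusted p = 0.0339 by limma).

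Tnfrsf9, which encodes the costimulatory receptor CD137 of activated T cells and was put forward as a beige surface marker, was higher in BAT than in scWAT of WT mice and over both genotypes. WT scWAT arrays read 2.62, 2.55 and 2.86 and WT BAT arrays 3.89, 4.62 and 4.05. Lr11-/- scWAT arrays read 3.44, 3.45 and 3.90 and Lr11-/- BAT arrays 4.20, 4.21 and 4.54. The 4 group means placed WT scWAT lowest, then scWAT of Lr11-/- mice, then BAT of WT mice and then BAT of Lr11-/- mice, from 2.68 ± 0.16 and 3.60 ± 0.26 to 4.19 ± 0.38 and 4.32 ± 0.19 (SD, n = 3). The neighbours WT BAT and Lr11-/- BAT overlapped, and so did Lr11-/- scWAT and WT BAT by 1 array.

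In WT mice, Tnfrsf9 in BAT exceeded scWAT by 1.51 (SE 0.24, adjusted p = 0.00416 by limma), and over both genotypes by 1.11 (SE 0.17, adjusted p = 0.00408 by limma). The exact permutation of depot within genotype gave a p of 0.005, the smallest that its 400 arrangements allow. The call in WT mice was kept with each of the 12 arrays left out in turn. The depot difference in Lr11-/- mice was 0.72 (SE 0.24) with an adjusted p of 0.413 by limma, and all 3 BAT arrays lay above all 3 scWAT arrays there too. Lr11-/- minus WT in scWAT was 0.92 (SE 0.24) with no overlap and an adjusted p of 0.053 by limma, just outside the threshold. It passed without replicate 3 of WT scWAT (adjusted p = 0.0356 by limma) and without replicate 1 of Lr11-/- scWAT (adjusted p = 0.0298 by limma). It was 0.82 in the first array series and 0.97 in the second. In BAT the genotype difference was 0.13, with a 95% interval from -0.40 to 0.66. The genotype effect in scWAT exceeded that in BAT by 0.79 (SE 0.34), with an adjusted p of 0.44 by limma.

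The second probe of Tnfrsf9 (A_55_P2082180) was well above background on 1 of 12 arrays, replicate 2 of WT scWAT, and with both probes averaged the depot difference in WT mice was 0.66 (adjusted p = 0.282 by limma). With this average Tnfrsf9 was not called over both genotypes either. Lr11-/- minus WT in scWAT then fell to 0.17 and was not called. On the second probe alone, too dim to be tested, the genotype difference in scWAT was -0.57. T lymphocyte markers were read beside Tnfrsf9 in both comparisons. Of the 6 tested genes of the T lymphocyte list, 0 were called higher and 1 lower in BAT over both genotypes, with a median difference of -0.92, and the mean of the list was -3.05 to -1.44 on scWAT arrays and -3.55 to -1.32 on BAT arrays. Of the 4 macrophage genes on the array, 0 were called higher and 3 lower in BAT over both genotypes. Of all probes, 24.2% were called in that comparison. For Lr11-/- against WT in scWAT, 0 of the 6 T lymphocyte genes were called, beside 5.27% of all probes. Of these genes 5 of 6 were above 0, with a median difference of 0.35. The part of T lymphocytes in the Tnfrsf9 values was not tested.

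Tbx1, a T-box factor of pharyngeal and muscle development, was lower in BAT over both genotypes, the opposite of Tnfrsf9. The scWAT arrays of WT mice read -4.40, -0.54 and 1.89, and those of Lr11-/- mice 3.47, 1.30 and 0.86. WT BAT arrays read -1.0, -6.84 and -1.80 and Lr11-/- BAT arrays -2.75, -4.05 and -5.47, of which 4 of 6 were well above background. In Lr11-/- mice all BAT arrays lay below all scWAT arrays, and in WT mice the groups overlapped.

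Over both genotypes Tbx1 in BAT was lower than in scWAT by a log2 difference of -4.08 (SE 1.23, adjusted p = 0.0367 by limma, exact permutation p = 0.02). The call was lost without any one of 8 arrays, replicates 2 and 3 of WT scWAT, replicates 1 and 2 of Lr11-/- scWAT, replicate 2 of WT BAT and replicates 1, 2 and 3 of Lr11-/- BAT, where the adjusted p by limma was 0.0549 to 0.0852. It was also lost with the slide as a block, where the difference was -5.42 with an adjusted p of 0.0671 by limma, and with no filter on dim probes, with an adjusted p of 0.0644. The difference with the slide as a block is that of the second array series. In Lr11-/- mice alone the difference was -5.97 (SE 1.74, adjusted p = 0.373 by limma). Lr11-/- minus WT in scWAT was 2.89 (SE 1.74, adjusted p = 0.305 by limma), made up of 7.87 in the first array series and 0.40 in the second.

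Tmem26, a membrane protein used to sort beige cells, was well above background on 1 of 12 arrays, replicate 2 of WT scWAT, at -3.09. The other 11 lay between -6.89 and -5.56. No fold change is given, since the brighter group did not exceed the lowest measurable signal of the dimmer one. Replicate 2 of WT scWAT was also the array with the low adipocyte markers.

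Cited1, a transcriptional coactivator, was well above background on 12 of 12 arrays and had its 2 highest values on muscle-rich scWAT arrays, 3.33 in replicate 1 of Lr11-/- scWAT and 0.95 in replicate 3 of WT scWAT. The other scWAT arrays read -2.52 and -3.15 for WT and -0.29 and -1.18 for Lr11-/-. In BAT the values were -1.27, -1.90 and -1.83 for WT and -0.08, -1.72 and -1.87 for Lr11-/-. Lr11-/- minus WT in scWAT was 2.19 (SE 1.22) with an adjusted p of 0.27 by limma. It was 0.84 without replicate 1 of Lr11-/- scWAT and 3.46 without replicate 3 of WT scWAT. Without the 5 arrays rich in muscle RNA, a comparison chosen after these values were seen, it was 2.10 with an adjusted p of 0.0428 by limma on 2 arrays a group.

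**Figure D3:**
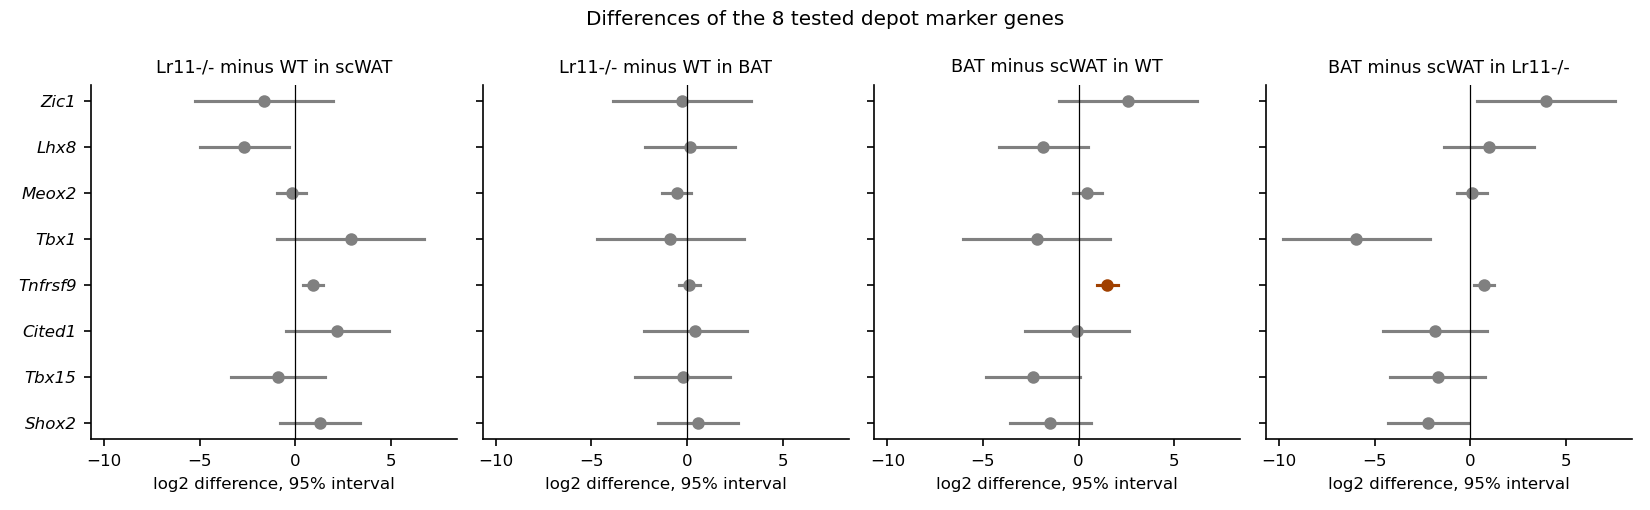
Log2 differences with 95% intervals from limma for the 8 tested depot marker genes in 4 comparisons. Coloured points passed an adjusted p under 0.05, which was Tnfrsf9 for BAT minus scWAT in WT mice at 1.51. The intervals of Meox2 and Tnfrsf9 are the narrowest.

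Tbx15, a T-box factor of subcutaneous fat that is also expressed in skeletal muscle, gave differences below 0 between BAT and scWAT that did not pass the test. WT scWAT arrays read -0.09, 0.81 and 3.12 and Lr11-/- scWAT arrays 2.29, -0.33 and -0.83. WT BAT arrays read 0.12, -3.31 and -0.15 and Lr11-/- BAT arrays -0.51, -1.49 and -2.00. Only 1 BAT array, replicate 1 of WT BAT, exceeded the lowest WT scWAT array. The BAT arrays at 0.12, -0.15 and -0.51 exceeded the lowest Lr11-/- scWAT array, at -0.83, and the depots overlapped in both genotypes. BAT minus scWAT was -2.39 (SE 1.12) in WT mice with an adjusted p of 0.137 by limma, and -2.05 (SE 0.79) over both genotypes with an adjusted p of 0.0811. Lr11-/- minus WT was -0.90 (95% interval -3.37 to 1.57) in scWAT and -0.22 (95% interval -2.70 to 2.25) in BAT.

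Tbx15 was higher on the muscle-rich arrays of each depot. In scWAT the 2 muscle-rich arrays read 2.29 and 3.12, above the range of -0.83 to 0.81 on the other 4. In BAT the 3 muscle-rich arrays read -0.51 to 0.12, above the range of -3.31 to -1.49 on the other 3. Tbx1 did the same, with 1.89 and 3.47 against -4.40 to 1.30 in scWAT and -2.75 to -1.0 against -6.84 to -4.05 in BAT. Cited1 split in the same way in scWAT, at 0.95 and 3.33 against -3.15 to -0.29, and its BAT ranges of -1.83 to -0.08 and -1.90 to -1.72 overlapped. Zic1 did not split by muscle RNA in either depot. In scWAT the 2 muscle-rich arrays also had the highest epithelial list means, 1.54 in replicate 1 of Lr11-/- and -2.06 in replicate 3 of WT. The other 4 scWAT arrays lay between -4.59 and -3.33. The parts of muscle and epithelial RNA in the scWAT values were not tested.

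With the mean of the muscle list as a covariate, added after these values were seen, BAT minus scWAT of Tbx15 in WT mice was -2.87 (adjusted p = 0.00262 by limma). Without the 5 muscle-rich arrays, also chosen after the values were seen, it was -3.66 (adjusted p = 0.0328 by limma), with 1 WT BAT array assumed to vary like the other groups. For Tbx1 over both genotypes the covariate gave -4.27 (adjusted p = 0.00475 by limma) and leaving out the 5 arrays gave -5.10 (adjusted p = 0.0645 by limma). In Lr11-/- mice alone, BAT minus scWAT of Tbx15 was -1.71 over all arrays, -1.50 with the covariate and -1.16 without the muscle-rich arrays. That of Tbx1 was -5.97, -5.68 and -5.84, and none of these passed the test.

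**Figure D4:**
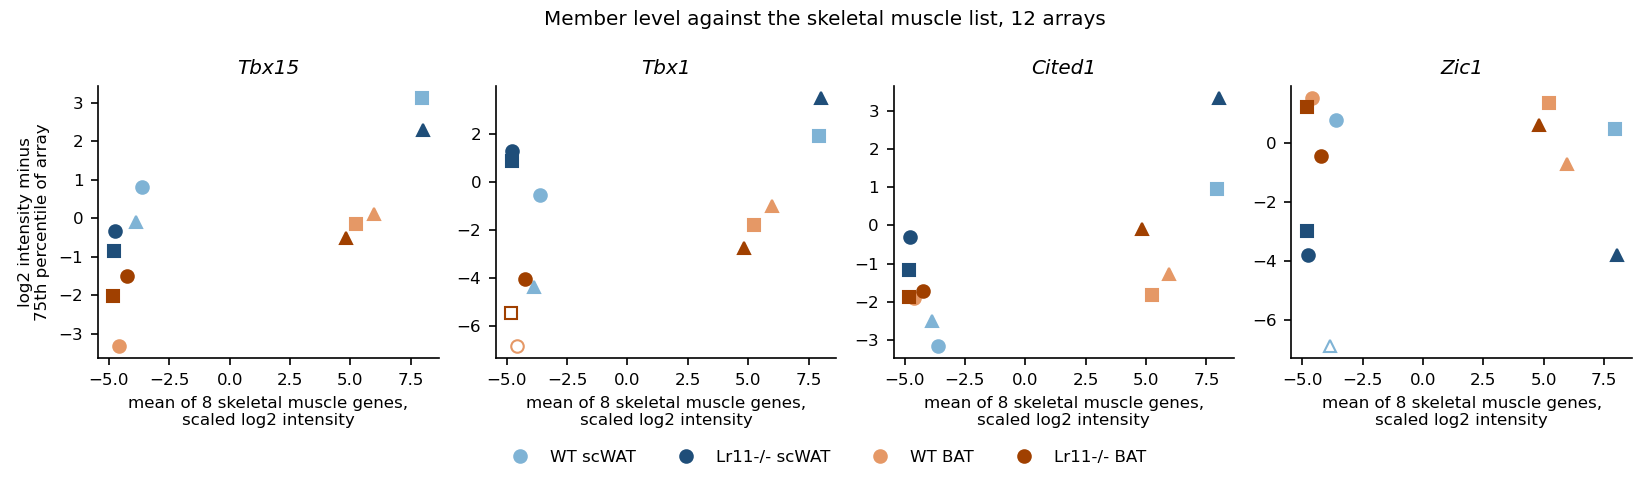
Scaled log2 intensity of Tbx15, Tbx1, Cited1 and Zic1 against the mean of 8 skeletal muscle genes, 1 point per array, coloured by group, with open symbols for arrays not well above background. Marker shapes stand for the replicate number. At the 5 arrays on the right (4.82 to 8.01), Tbx15 and Tbx1 are higher than on the left within each depot.

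Shox2, a homeobox factor of limb and subcutaneous fat, was dim. It was well above background on 5 of 6 scWAT arrays and 2 of 6 BAT arrays. scWAT arrays read -1.89, -3.18 and -5.06 in WT and -3.07, -1.70 and -1.46 in Lr11-/- mice, and BAT arrays read -3.70, -5.64 and -5.23 in WT and -4.22, -2.67 and -5.94 in Lr11-/- mice. Over both genotypes BAT minus scWAT was -1.84 (SE 0.67, adjusted p = 0.069 by limma, exact permutation p = 0.04), and neither genotype alone passed the test. Lr11-/- minus WT in scWAT was 1.30 (SE 0.95, adjusted p = 0.4 by limma).

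Genes that share these roles gave a background for the members. Their lists were chosen with earlier results of these data known. Between depots in WT mice, 24.8% of all probes were called in either direction. Among 8 tested other classical brown markers, 5 were called higher and 0 lower in BAT than in scWAT of WT mice. Mpzl2, an adhesion molecule, was higher by 6.34 (SE 1.21), Pdk4, the kinase that shuts off pyruvate dehydrogenase, by 3.56 (SE 1.15), and Oplah, 5-oxoprolinase, by 3.44 (SE 0.53), with adjusted p of 0.00674, 0.0457 and 0.00396 by limma. The mean of the 8 brown markers reached 2.17 on the muscle-rich replicate 3 of WT scWAT. On the muscle-rich replicates 1 and 3 of WT BAT it stood at 2.37 and 2.68. The WT arrays poor in muscle RNA gave 0.05 and -0.62 for scWAT replicates 1 and 2, against 1.58 for BAT replicate 2. The part of muscle RNA in these calls was not tested. Among 5 other beige markers 0 were called. Those with the largest differences were Ear2, an eosinophil ribonuclease, at -2.07 (adjusted p = 0.0962) and Klhl13 at -1.16 (adjusted p = 0.0533), by limma. The medians of these 2 lists were 2.11 and -0.54, against 0.07 over all probes.

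Regulators of brown fat and relatives of the members included several depot differences, beside 24.8% of all probes called between depots in WT mice. At 2 of 10, the relatives lay below that share. Of 5 tested regulators of the brown lineage 3 were called higher in WT BAT, Ebf2 by 2.29, Prdm16 by 2.19 and Ehmt1 by 1.09, with adjusted p of 0.00207, 0.0276 and 0.0287 by limma. Of 10 tested relatives of the members 2 were called higher, Tbx5, a T-box factor of forelimb and heart, by 4.81 (adjusted p = 0.00182) and En2 by 0.71 (adjusted p = 0.0355). Of 7 tested genes of depot position, 1 was called higher, Hoxa5 by 2.01, and 2 lower, Hoxc9 and Sfrp2, the latter by a difference of -3.58 (adjusted p = 0.0175). Tcf21, Wt1 and Bnc1 of this list were not tested and were well above background on 1 array each, replicate 3 of WT scWAT. There 10 of 10 listed genes were above, with a list mean of 0.18, while every other array lay between -3.11 and -1.59. The part of this in other values of that array was not tested. Of 6 white adipocyte genes 2 were called lower, Wfdc21 at -3.35 and Agt, angiotensinogen, at -2.50, with adjusted p of 0.0152 and 0.0263 by limma.

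The thermogenic genes are those against which the lineage markers are usually read. Of 10 thermogenic genes 9 were called higher in BAT of WT mice, beside 24.8% of all probes called. In Lr11-/- scWAT 6 of 10 were called higher than in WT scWAT, beside 5.27% of all probes called. In WT scWAT Ucp1 read -4.63, -4.52 (not well above background) and 2.92. In Lr11-/- scWAT it read 4.39, 9.75 and 10.05, and in BAT 9.45 to 10.07. The difference for genotype in scWAT was 10.14 (SE 1.92, adjusted p = 0.0326 by limma) for Ucp1 and 8.70 (SE 1.91, adjusted p = 0.0405 by limma) for Cidea, a lipid droplet protein of brown fat. The general adipocyte markers were above 0 in the same comparison for 8 of 8 genes, with a median of 1.44 and 0 called. Replicate 2 of WT scWAT was lowest in both lists, with means of 4.10 for the adipocyte and -3.05 for the thermogenic genes. The part of adipocyte content in the thermogenic difference was not tested. The 2 Lr11-/- scWAT arrays at the BAT level of Ucp1 had Hoxc9 at 2.36 and 2.13, like the other scWAT arrays. On the brighter Zic1 probe these arrays read -3.79 and -3.00, below every BAT array. The WT scWAT arrays, with far lower Ucp1, read -6.86 (not well above background), 0.76 and 0.46 on that probe. The latter values lay within the range of BAT, so that probe did not separate the depots in WT mice. The depot difference of that probe in Lr11-/- mice did not pass the test (adjusted p = 0.513 by limma). On the second Zic1 probe BAT minus scWAT in Lr11-/- mice was 0.33 (adjusted p = 0.753 by limma). Which probe follows Zic1 was not tested.

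For Lr11-/- against WT in scWAT, 5.27% of all probes were called in either direction. Of the lineage lists in this comparison, 2 of 8 other classical brown markers were called higher, Acot2, an acyl-CoA thioesterase, by 3.75 and Oplah by 3.12, and 0 of 5 other beige markers were called. Among brown regulators 1 of 5 was called, Ebf2, by 1.54 (SE 0.28, adjusted p = 0.0297 by limma), and among relatives of the members 1 of 10, Tbx5, by 2.38 (SE 0.53, adjusted p = 0.0412 by limma). Ebf2 read 0.53, -0.38 and -0.07 in WT scWAT, 1.49, 1.85 and 1.36 in Lr11-/- scWAT and 1.95 to 2.76 in BAT. Tbx5 read -4.18, -2.75 and -4.22 in WT scWAT, -2.18, -0.49 and -1.36 in Lr11-/- scWAT and -0.11 to 1.64 in BAT. Both lay between WT scWAT and BAT in Lr11-/- scWAT without overlap, but they were named because they were called in this comparison. Of all probes, 20.4% did not overlap between genotypes in scWAT and 23.2% did not overlap between depots in Lr11-/- mice. The preadipocyte genes Dcn and Cd34 were called lower in Lr11-/- scWAT, 2 of 5 of the fibroblast list, with differences of -1.64 and -1.30. The genotype calls of the 4 lists were lost when single arrays were left out, as were most calls over all probes. Without replicate 2 or replicate 3 of Lr11-/- scWAT, all 4 lists had 0 calls, and 31 and 17 of all probes were called. The thermogenic count was also 0 without any 1 of the 6 BAT arrays, where 137 to 170 of all probes were called and the scWAT differences themselves are the same, with no filter on dim probes, and with the 6 scWAT arrays alone in the fit, was 2 without replicate 2 of WT scWAT and with the slide as a block, and was 9 without replicate 1 of Lr11-/- scWAT. The difference of Ucp1 ranged from 8.75 to 14.48 over 27 settings and was called in 16.

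**Figure D5:**
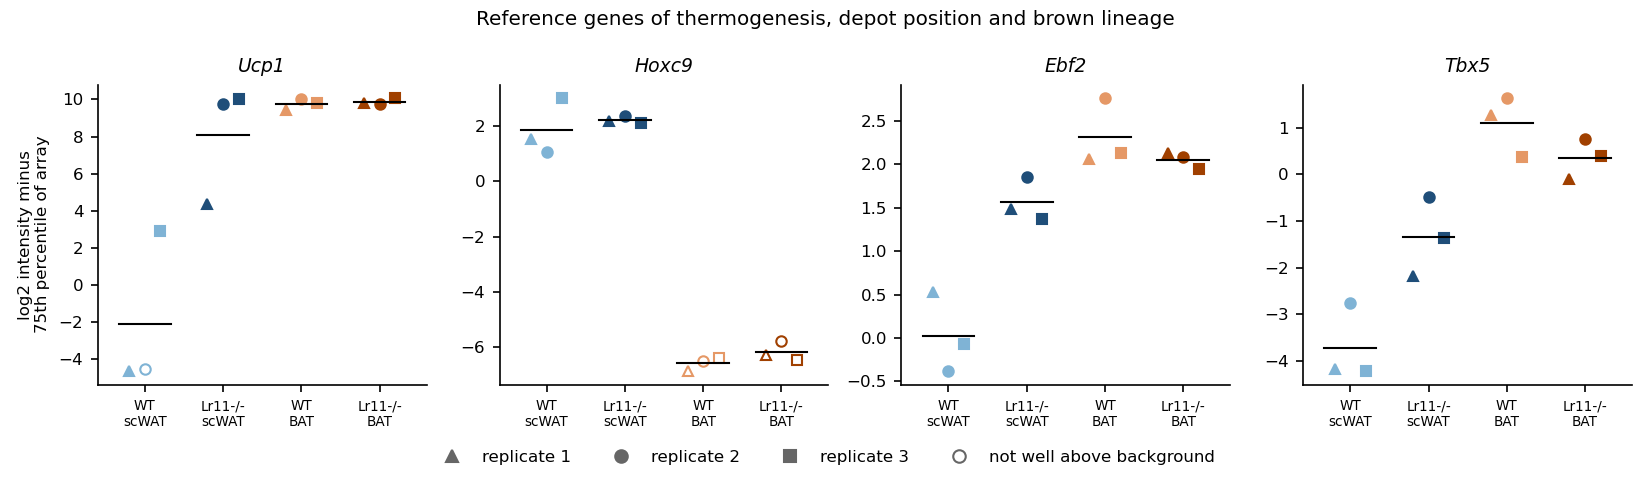
Scaled log2 intensity of Ucp1, Hoxc9, Ebf2 and Tbx5 on the 12 arrays, by group, with the group mean as a line and open symbols for arrays not well above background. Hoxc9 has means of 1.88 and 2.23 in scWAT against -6.58 and -6.18 in BAT. Ucp1, Ebf2 and Tbx5 are higher in Lr11-/- than in WT scWAT on all 3 arrays.

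For the 6 tested members with an SD over the 12 arrays of at least 1, the genes with the most similar pattern were sought among 14698 named genes, by the SD of the difference over 12 arrays. Tbx15 was followed most closely, by Podxl2, a sialomucin, at 0.40 and by Kcnma1, a potassium channel, at 0.57, beside an SD of Tbx15 itself of 1.74. Lhx8 was followed by AI606473 at 0.62 and Plagl1 at 0.93 (own SD 1.62), and Cited1 by Morc2b at 0.69 and Phka1, a subunit of muscle phosphorylase kinase, at 0.83 (own SD 1.75). Shox2 was followed by Mgst2 at 0.81 and Fbxo27 at 0.91 (own SD 1.57). The nearest genes of Zic1 and Tbx1 stood farther off, Mapt at 1.60 and Chac1 at 1.62, beside own SDs of 2.67 and 3.18. The arrays share depot, genotype and muscle RNA, so these are descriptions of 12 arrays.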

How the data were processed

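The authors deposited intensity values of 12 arrays made with Agilent Feature Extraction 10.10.1.1, whose processed signal has local background and spatial trend removed per array, with no scaling across arrays. The series table holds the same values (largest difference 0). Here, spots marked as outliers (128 to 181 per array) were dropped, log2 was taken, spots of a probe were averaged and the 75th percentile (374 to 632) was subtracted. Of 28685 probes with a RefSeq accession 27235 were named through the GRCm38.p6 gene table; the array was designed on mm9, so no gene coordinates from it are given. Per array, 32377 to 37002 of 59305 spots passed the software's background test, and 0 spots were saturated. The number of arrays limits the precision.

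limma 3.58.1 in R 4.3.3 fitted 1 mean per group over all 12 arrays. A gene was read from its brightest tested probe. Members and lists were chosen with earlier results of these data known. Named genes were set by rule: the members, Sorl1, Ucp1, Cidea and, per list, up to 3 called genes with the largest difference or else 2 uncalled. Zic4, Dcn, Cd34, Tcf21, Wt1 and Bnc1 were named after their values were seen. Exact permutation tests are two-sided. The code was tested on simulated data. Figures used Python 3.11.15 and matplotlib 3.10.9.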

Additional observations from a re-analysis of the deposited data

How the results depend on the processing

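Of 905 recomputed values for single genes in 4 comparisons (both genotype effects, their difference, and the depots in WT mice), 855 kept their direction and their side of the threshold, 16 gained a call, 1 lost it and 33 turned direction. Only Tnfrsf9 between depots in WT mice was called at first, so keeping a side mostly meant staying uncalled. Some alternatives could not move a difference, such as the series table or leaving out an array of a group outside the comparison. Between depots over both genotypes, which these leave out, Tbx1 was not called in 11 of 26 settings, Zic1 was called in 8 of 26, and Lhx8 ran from -0.77 to 0.86. For BAT against scWAT over both genotypes (2 genes called), the count was 1 with no filter on dim probes, with only probes above background on all 12 arrays, and with the slide as a block. It was 3 with median scaling, normexp, the array series as a block, the second series alone and array weights (Zic1 added) and with muscle as a covariate (Tbx15 added), and 5 at an adjusted p under 0.1. It stayed 2 with the mean of all probes, where Zic1 was called and Tnfrsf9 was not. It was 1 to 3 with single arrays left out. The slide block and the second series alone are not separate checks of this comparison, since both take the difference from the second series. In WT mice (1 gene) the count was 0 with the mean of all probes and 2 with the second array series alone, without the 5 muscle-rich arrays and with muscle as a covariate, and 1 to 2 with single arrays left out. In Lr11-/- mice (0 genes) it was 5 with array weights. For genotype in scWAT (0 genes) it was 1 with normexp, with only probes above background on all 12 arrays, with the slide as a block, with array weights, with a trended robust variance, at an adjusted p under 0.1 and without the 5 muscle-rich arrays, 2 in the second series alone, and 0 to 2 with single arrays left out. The count was 0 under every alternative for genotype in BAT and for the difference of genotype effects. The causes were not tested.

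The turned directions were all in uncalled differences. For genotype in BAT, Lhx8 was -0.31 in the second series and -0.31 without the 5 muscle-rich arrays. Without those arrays Tbx1 was 2.08, Tbx15 1.56 and Tnfrsf9 -0.24, and with muscle as a covariate Tbx1 was 0.28 and Tbx15 0.62. Array weights gave Tbx15 0.10. Meox2 in scWAT was 0.30 in the second series. Cited1 between depots in WT mice was 0.043 with median scaling and 0.94 without the 5 arrays. The difference of genotype effects was -0.38 for Shox2 and 0.78 for Zic1 without the 5 arrays. With single arrays left out, genotype in BAT ran from -0.14 to 0.76 for Cited1, -0.23 to 0.56 for Lhx8, -0.22 to 1.41 for Shox2, -2.69 to 0.23 for Tbx1, -1.32 to 0.39 for Tbx15, -0.015 to 0.35 for Tnfrsf9 and -0.97 to 0.20 for Zic1. Genotype in scWAT ran from -0.45 to 0.23 for Meox2 and -1.86 to 0.017 for Tbx15. The difference of effects ran from -0.12 to 1.53 for Shox2 and -1.64 to 0.42 for Tbx15, and the depot difference of Cited1 in WT mice from -0.88 to 1.17. The alternatives on muscle RNA were chosen after seeing the data.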
